A study of Rattus norvegicus with 10 samples.

Results

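The 10 genes followed here encode the receptors through which liver cells sense foreign compounds, bile acids, sterols and fatty acids: Nr1i2 (PXR), Nr1i3 (CAR), Ahr, Nr1h4 (FXR), Nr1h3 (LXR alpha), Ppara, Ppard, Pparg, Rxra and Hnf4a. They were chosen by name, and a probe belonged to a gene where its accession did. Of the 10 genes, 8 matched a probe, with 10 probes among the 41012 on the array, and Ahr and Rxra matched none and were not analysed here. All 8 genes were well above background on each of the 10 arrays and were tested.

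Nuclear receptors are transcription factors that a small lipophilic ligand switches on. PXR, CAR, FXR, LXR and the PPARs bind DNA as pairs with RXR, at repeats of a core sequence related to AGGTCA, and each raises its own set of enzymes and transporters. AHR belongs to a different protein family and pairs with ARNT, and HNF4A binds DNA as a pair with itself and keeps many genes of the hepatocyte on. In liver, PXR and CAR drive drug-metabolizing enzymes, FXR and LXR set bile acid and sterol turnover, and PPARA drives the burning of fatty acids.

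Liver RNA of 10 male Sprague Dawley rats was read on one-colour Agilent whole rat genome arrays, 1 array per rat, 24 h after the injection. The 3 control rats were given propylene glycol, the solvent, in place of sulfur mustard (SM), an alkylating blister agent. The 4 SM rats were given SM at 3.5 mg/kg under the skin, and the 3 SM + MSTF rats were given the same dose and, 1 h later, MSTF at 120 mg/kg by mouth. MSTF combines 2 plant extracts, the salvianolic acids of Salvia miltiorrhiza and the flavonoids of Anemarrhena asphodeloides. No group was given MSTF without SM, so an effect of MSTF by itself cannot be told apart from its effect in rats given SM.

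Values are log2 of the quantile-normalized signal, on which a difference of 1 is a doubling. A gene was called changed at a Benjamini-Hochberg adjusted p under 0.05 in limma, taken over all 22987 probes tested, and at least a 1.5-fold change. On each array 51.9% to 61.4% of probes lay well above background, and no spot was saturated. The 4 SM arrays made up 1 slide, the 3 control arrays and SM + MSTF replicate 3 another, and SM + MSTF replicates 1 and 2 the remaining slide. SM and its slide therefore cannot be told apart, and only SM + MSTF replicate 3 can be set against the control within a slide. All 8 hepatocyte markers were tested and lay well above background on all 10 arrays, with a summed log2 signal of 20.5 to 20.6 in control, 20.5 to 20.6 in SM and 20.4 to 20.6 in SM + MSTF, and 0 of them were called in any comparison. Quantile normalization fixes the values of the brightest probes, and Tf read 18.72 on 5 arrays, so this sum could hardly move. In whole liver, fewer cells of a type and less RNA per cell cannot be told apart.

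By limma, 0 of the 8 receptors were called in any of the 3 comparisons. Of all probes tested, 2.4% were called in SM against control, 0% in SM + MSTF against control and 1.28% in SM + MSTF against SM. At an unadjusted p under 0.05, 0 receptors passed in SM against control, 1 (Nr1h4, higher) in SM + MSTF against control and 2 (Nr1h4, higher, and Ppard, lower) in SM + MSTF against SM, against 16.4%, 9.56% and 15.9% of all probes. The median log2 fold change over the 8 receptors was 0.14, 0.15 and 0.05 in the same order, and over all probes 0.03, 0.0048 and -0.02. With 1 array left out these medians ran from 0.075 to 0.23, from 0.095 to 0.20 and from -0.064 to 0.16. The first fell without control replicate 2 or SM replicate 1 and grew without SM replicate 3, the second was lowest without control replicate 2, and the last grew without SM replicate 1 and turned below 0 without SM replicate 3 or SM + MSTF replicate 3. With normexp they were 0.079, 0.098 and 0.020. With a change of at least 1.5-fold asked for as well, 0, 0 and 1 (Ppard) passed, against 5.62%, 2.99% and 5.34% of all probes. Ppard, Nr1h4 and Nr1i3 showed the largest changes or the widest spread, and they are described in turn with the other receptors.

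**Figure D1:**
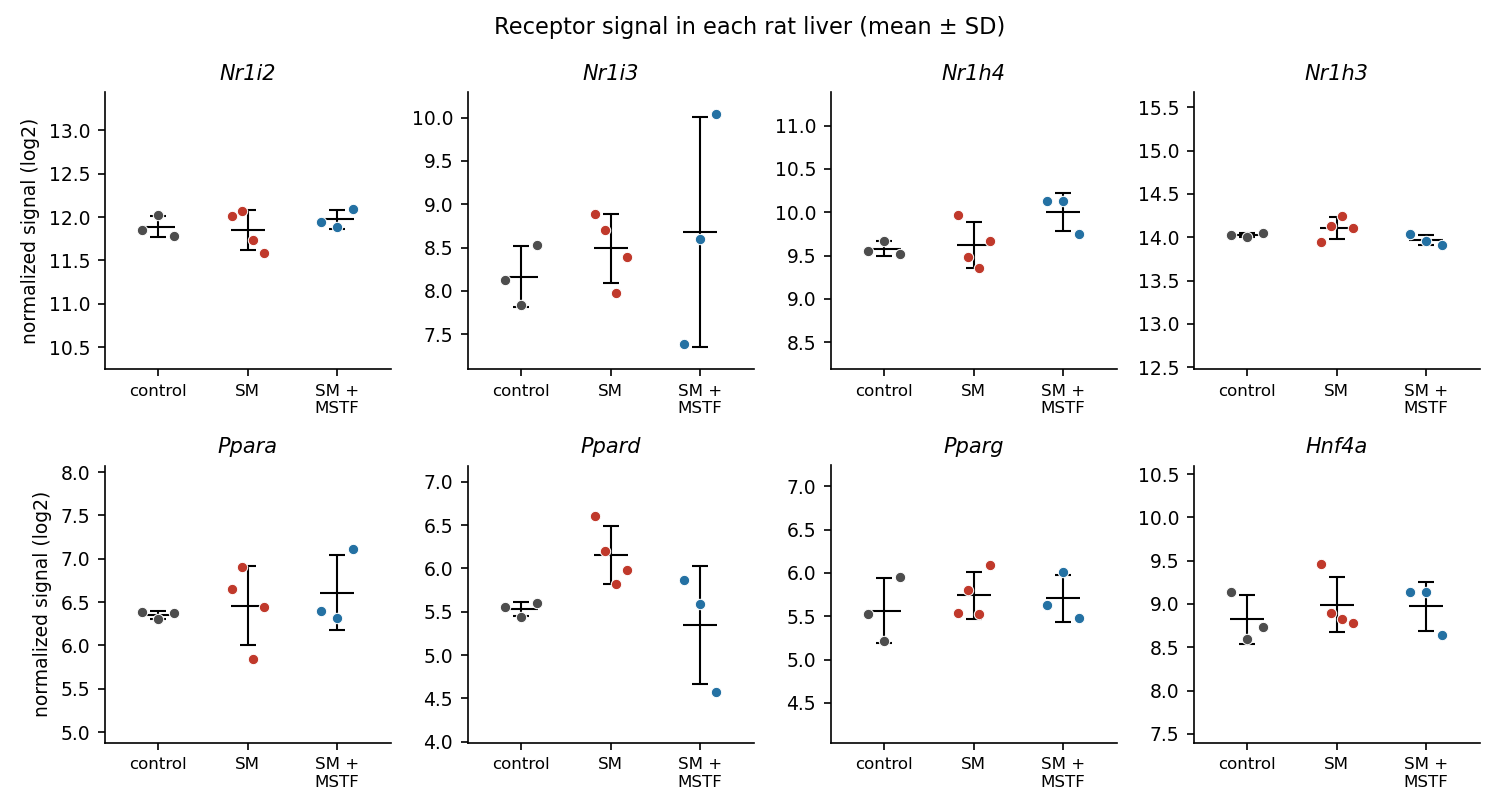
Normalized signal (log2, vertical axis) of each receptor in each liver, grouped as control (3 rats), SM (4) and SM + MSTF (3). Points are rats, and the horizontal dash and bars are the mean and the SD. A gene with several probes is shown by its brightest. The SM points of Ppard lie above all control points, and the SM + MSTF points of Nr1i3 spread from 7.39 to 10.04.

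Nr1i2 encodes PXR, the receptor that many drugs and steroids activate to raise Cyp3a enzymes. Its log2 signal was 11.86, 12.03 and 11.79 in the control rats, 12.01, 12.07, 11.74 and 11.59 in the SM rats and 11.94, 11.88 and 12.10 in the SM + MSTF rats. The groups overlapped in all 3 comparisons. Its log2 fold change was -0.04 (SE 0.13, adjusted p = 0.918) in SM against control and 0.08 (SE 0.14, adjusted p = 0.874) in SM + MSTF against control. The 95% intervals, 0.791-fold to 1.20-fold and 0.850-fold to 1.32-fold, leave out a change of 1.5-fold in either direction.

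Nr1i3 encodes CAR, the receptor behind the induction of Cyp2b enzymes by phenobarbital, and it varied more between rats than any other receptor. On its brighter probe the log2 signal was 8.13, 7.83 and 8.53 in control and 8.89, 8.70, 7.97 and 8.40 in SM. In SM + MSTF it was 7.39, 8.60 and 10.04, so that this group held both the lowest and the highest of the 10 livers, 6.30-fold apart. The SD within groups was 0.78 on the log2 scale, and 97.4% of all tested probes had an SD no larger, while the median probe had 0.20. The second Nr1i3 probe gave 7.23, 8.63 and 9.90 in the same 3 rats, and the 2 probes correlated with Pearson's r = 0.990 over the 10 arrays.

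The mean of Nr1i3 was higher by 0.33 (SE 0.51, adjusted p = 0.805) in SM against control and by 0.51 (SE 0.55, adjusted p = 0.791) in SM + MSTF against control, neither beyond the spread between rats. The interval of the latter, 0.608-fold to 3.35-fold, covers changes of more than 1.5-fold in both directions. Without SM + MSTF replicate 3 the difference between SM + MSTF and control was -0.17 and that between SM + MSTF and SM was -0.49. Set against the control arrays of its own slide, SM + MSTF replicate 3 was higher by 1.88, a difference of 1 liver that has no replicate on that slide.

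Of the 11792 other named probes compared, the one whose signal followed Nr1i3 most closely belonged to Cyp3a62, a cytochrome P450 of the Cyp3a family (r = 0.970, Spearman's rho = 0.915, 10 arrays). Ypel3 (r = 0.941) and Plekhb1 (r = 0.928) came next. The log2 signal of Cyp3a62 was 9.30, 9.36 and 9.51 in control, 9.68, 9.78, 9.27 and 9.51 in SM and 8.87, 9.81 and 10.82 in SM + MSTF. Its lowest and highest livers were those of Nr1i3, SM + MSTF replicates 1 and 3. Without these 2 arrays the correlation was 0.860 over 8 arrays, and after the group means were taken away it was 0.98. The correlation is a description, since the nearest genes were picked from all of those compared and the arrays share their slides and their normalization.

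**Figure D2:**
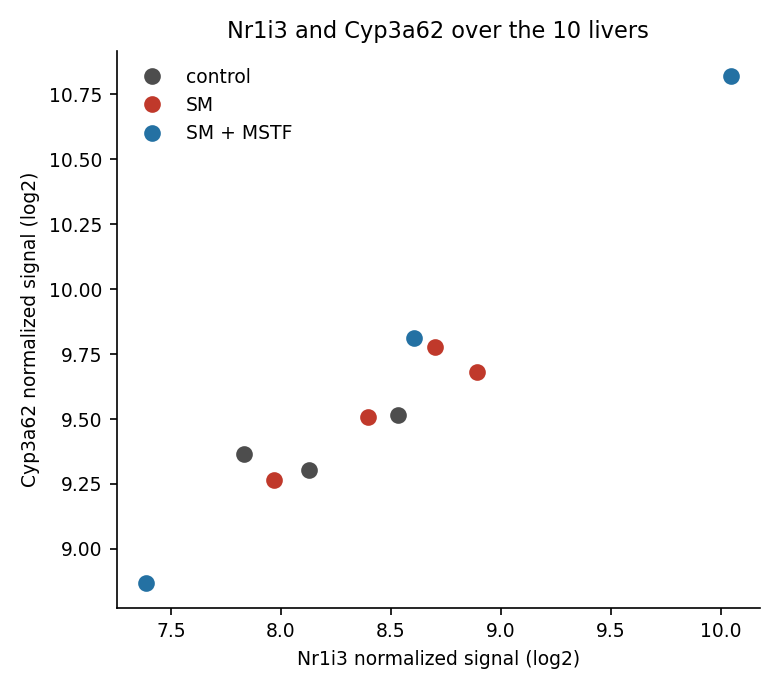
Normalized signal (log2) of Cyp3a62 (vertical axis) against Nr1i3 (horizontal axis) in the 10 livers, 1 point per rat, coloured by group. SM + MSTF replicate 1 lies lowest (7.39 and 8.87) and SM + MSTF replicate 3 highest (10.04 and 10.82) on both axes.

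The 250 bases before the start of Nr1i3 and of Cyp3a62 are shown because these genes varied together. They are from RefSeq on GRCr8, chr13:86165170-86165419 and chr12:21511513-21511762, both on the + strand, and capitals would mark AGGTCA or its reverse complement.
Nr1i3: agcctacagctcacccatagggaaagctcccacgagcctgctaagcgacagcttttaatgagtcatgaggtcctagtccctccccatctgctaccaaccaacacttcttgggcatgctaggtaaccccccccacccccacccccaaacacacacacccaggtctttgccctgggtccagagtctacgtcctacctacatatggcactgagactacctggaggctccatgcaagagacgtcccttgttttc
Cyp3a62: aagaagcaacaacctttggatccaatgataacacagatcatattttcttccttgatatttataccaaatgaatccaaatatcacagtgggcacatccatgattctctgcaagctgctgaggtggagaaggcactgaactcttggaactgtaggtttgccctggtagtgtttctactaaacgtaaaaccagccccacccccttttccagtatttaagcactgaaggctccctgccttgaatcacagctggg
Neither window holds AGGTCA on either strand, and their longest shared run is 10 bases. Promoter windows were found for 8 of the 10 receptors, with 10 start sites, and 0 of these windows hold AGGTCA, which 14.1% of all 33469 promoter windows of the same length do. A window without these letters says nothing about sites that differ by a base or lie elsewhere.

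Nr1h4 encodes FXR, the bile acid receptor. Its log2 signal was 9.56, 9.67 and 9.51 in control, 9.97, 9.49, 9.35 and 9.67 in SM and 10.13, 10.13 and 9.75 in SM + MSTF. All 3 SM + MSTF livers lay above all 3 control livers, as they did for 8.08% of all probes. The difference of 0.42 (SE 0.17, 1.34-fold, adjusted p = 0.481) in SM + MSTF against control did not pass the test. The difference from SM was 0.38 (SE 0.16, adjusted p = 0.284), with SM replicate 1 inside the range of SM + MSTF. SM against control gave 0.04 (SE 0.16, adjusted p = 0.932). Within its slide SM + MSTF replicate 3 stood 0.17 above the control. Replicates 1 and 2, the higher ones, were on a slide of their own.

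Nr1h3 encodes LXR alpha, the receptor for oxidized sterols. It was the steadiest receptor, with 14.03, 14.00 and 14.05 in control, 13.94, 14.13, 14.24 and 14.11 in SM and 14.04, 13.96 and 13.91 in SM + MSTF. The highest and lowest of the 10 livers differed by 1.26-fold, and the SD within groups was 0.09. The log2 fold changes were 0.08 (SE 0.09, adjusted p = 0.718) in SM against control and -0.14 (SE 0.09, adjusted p = 0.470) in SM + MSTF against SM. All 3 of its 95% intervals lay between 0.787-fold and 1.22-fold. The closest probe to it was 1 of Nrip1, a corepressor of nuclear receptors (r = 0.923), which is not the brightest probe of that gene.

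Ppara encodes the receptor that fibrate drugs activate. Its log2 signal was 6.39, 6.30 and 6.37 in control, 6.65, 6.90, 5.84 and 6.45 in SM and 6.40, 6.32 and 7.11 in SM + MSTF. The control livers lay close together, and the SM livers spread above and below all of them. The log2 fold changes were 0.11 (SE 0.26, adjusted p = 0.882) and 0.26 (SE 0.27, adjusted p = 0.791) against control and 0.15 (SE 0.26, adjusted p = 0.796) for SM + MSTF against SM. As for Nr1i3, the highest liver was SM + MSTF replicate 3, and the signals of these receptors correlated with r = 0.742 over the 10 arrays.

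Ppard, a relative of Ppara that is active in many tissues, was the receptor with the largest change. Its log2 signal was 5.56, 5.44 and 5.60 in control, 6.60, 6.20, 5.82 and 5.99 in SM and 5.87, 5.59 and 4.57 in SM + MSTF. All 4 SM livers lay above all 3 control livers, as did the SM livers for 10.1% of all probes. The difference of 0.62 (SE 0.29), 1.54-fold with an interval from 0.982-fold to 2.41-fold, did not pass the test (adjusted p = 0.325). In SM + MSTF against SM it was -0.81 (SE 0.29, 1.75-fold lower, adjusted p = 0.230), and SM + MSTF replicate 1 lay above SM replicate 3.

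The low value of SM + MSTF replicate 3 set much of the Ppard contrast with SM. Without it the difference from SM was -0.42 and that from control turned from -0.19 to 0.20. With the normexp background correction the difference was 0.29 in SM against control and -0.30 in SM + MSTF against SM. The nearest probes to Ppard were those of Bhmt2 (r = 0.970), a methyltransferase that makes methionine, Acot13 (r = 0.969), a thioesterase of fatty acyl-CoA, and Bco2 (r = 0.961), which cleaves carotenoids.

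Pparg, the receptor that drives fat cell formation, had 10 spots per array and log2 signals of 5.53, 5.21 and 5.95 in control, 5.54, 5.81, 5.52 and 6.09 in SM and 5.63, 6.01 and 5.48 in SM + MSTF. The groups overlapped throughout. Its log2 fold changes were 0.17 (SE 0.21, adjusted p = 0.734), 0.14 (SE 0.22, adjusted p = 0.865) and -0.03 (SE 0.21, adjusted p = 0.947). In control replicate 2 the scanner software marked 2 of the 10 spots as outliers, and with these kept the value was 5.75 in place of 5.21.

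Hnf4a was read by 2 probes that correlated with r = 0.709 over the 10 arrays. The brighter gave 9.14, 8.59 and 8.73 in control, 9.46, 8.89, 8.83 and 8.78 in SM and 9.14, 9.13 and 8.65 in SM + MSTF. SM replicate 1 stood above the other SM livers, and the groups overlapped. The log2 fold changes were 0.17 (SE 0.21, adjusted p = 0.737) in SM against control and 0.15 (SE 0.22, adjusted p = 0.853) in SM + MSTF against control, and on the other probe 0.08 (SE 0.15, adjusted p = 0.836) and 0.12 (SE 0.17, adjusted p = 0.838).

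The genes nearest to the other receptors over the 10 arrays were Borcs7, Adh5 and Atp2c1 for Nr1i2 (r = 0.911, 0.908 and 0.885), and Rmc1, Kctd6 and Mphosph8 for Nr1h4 (r = 0.908, 0.900 and 0.880). Dstn and Ap3d1 followed Nrip1 for Nr1h3 (r = 0.906 and 0.896). For Ppara they were Trmu, Tlcd4 and Slc49a4 (r = 0.957, 0.941 and 0.914), for Pparg Atf6b, Slc35f6 and Anxa4 (r = 0.925, 0.923 and 0.893), and for Hnf4a Eral1, Tollip and Ten1 (r = 0.933, 0.930 and 0.927). Among the receptors themselves r ran from -0.67 for Nr1h4 with Nr1h3 to 0.74 for Nr1i3 with Ppara. These values are descriptions.

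**Figure D3:**
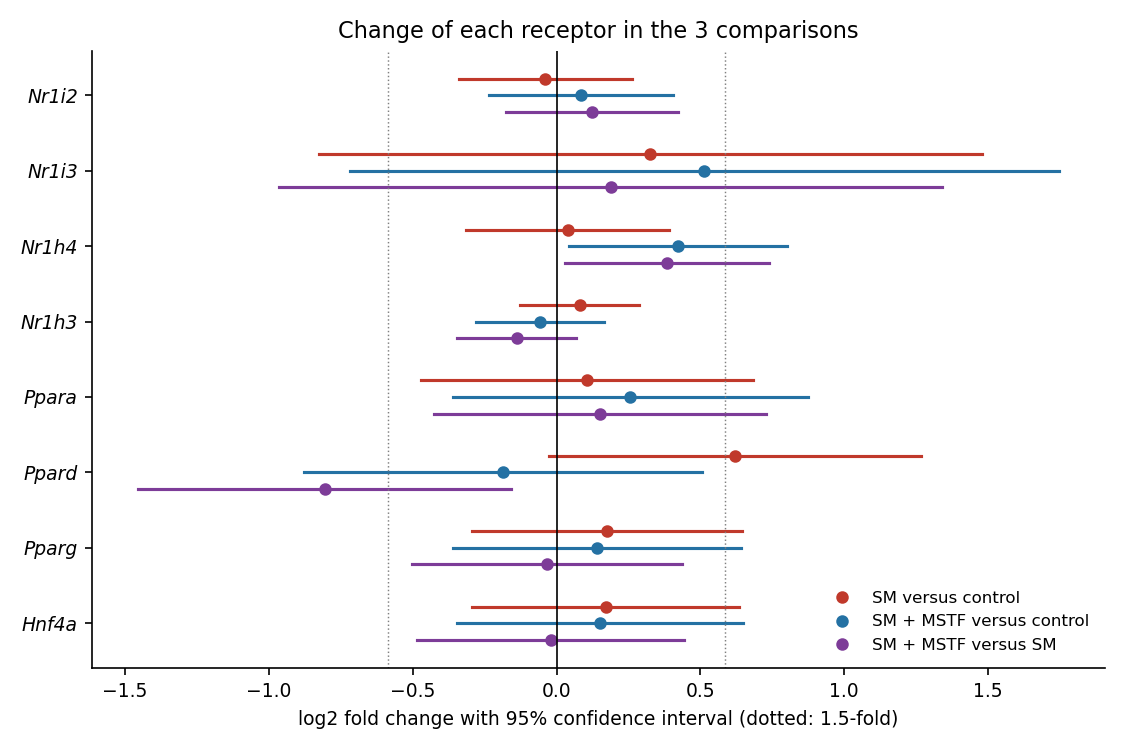
Log2 fold change (horizontal axis) of each receptor in the 3 comparisons, with points for the limma estimate and lines for its 95% confidence interval, and dotted lines at 1.5-fold. The intervals of Nr1h4 against control and SM and of Ppard in SM + MSTF against SM leave out 0 before adjustment for the number of probes, and those of Nr1i3 are the widest.

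Genes that these receptors are known to regulate or to work with were read from 8 lists, with 117 genes in all, of which 102 matched a probe and 94 were tested. Apoa2 was called in SM against control, Cyp4a1 and Cyp4a2 were called in SM + MSTF against SM, and 0 were called in SM + MSTF against control, where 13 were higher and 2 lower at an unadjusted p under 0.05 (of all probes, 4.38% and 5.18%). Of all probes, 0.974% were called higher in SM than in control and 0.318% in SM + MSTF than in SM. Several probes were tested for 21 of these genes, and in 4, 5 and 4 of them a dimmer probe had the opposite sign to the brightest in the 3 comparisons. Apoa2, Cyp4a1 and Cyp4a2 had 1 tested probe each.

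The Cyp4a genes encode enzymes that oxidize the far end of fatty acids, and they are classical PPARA targets in rodents. Cyp4a1 had log2 signals of 13.22, 13.39 and 13.11 in control, 13.28, 13.25, 13.35 and 13.12 in SM and 14.01, 13.79 and 14.61 in SM + MSTF. All 3 SM + MSTF livers lay above all other livers, as they lay above all SM livers for 5.92% of probes, by 0.89 over SM (SE 0.18, 1.85-fold, adjusted p = 0.0451) and by 0.90 over control (SE 0.19, adjusted p = 0.347). SM against control gave 0.01 (SE 0.18, adjusted p = 0.989).

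Cyp4a2 followed the same order, with 10.77, 10.87 and 11.54 in control, 11.53, 11.54, 10.87 and 11.06 in SM and 12.74, 12.13 and 13.21 in SM + MSTF. It was higher by 1.44 (SE 0.29, 2.72-fold, adjusted p = 0.0460) over SM and by 1.64 (SE 0.31, 3.11-fold, adjusted p = 0.347) over control. Cyp4a3 gave 14.35, 14.44 and 15.48 in SM + MSTF against 13.65 to 14.08 in SM and 13.94 to 14.42 in control, and its difference from SM of 0.82 (SE 0.26, adjusted p = 0.179) was not called. SM + MSTF replicate 3 was the highest liver for all 3 genes. Against the control arrays of its own slide, this liver was higher by 1.37 for Cyp4a1 and by 2.15 for Cyp4a2, values of 1 liver without a replicate on that slide. With the slide as a random block in limma, neither gene was called in SM + MSTF against SM (0.90, adjusted p = 0.0877, and 1.46, adjusted p = 0.101).

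These calls lay close to the threshold. Cyp4a1 was called in 7 and Cyp4a2 in 8 of 15 other settings, and with 1 array left out each was called in 2 of 10 fits. The other settings include the same fit with no fold minimum and with the unadjusted p, where a called gene cannot be lost. Cyp4a1 was lost without any control, any SM array or SM + MSTF replicate 1, with 0.84 to 0.95 on the log2 scale. Cyp4a2 was lost without control replicate 1 or 2, any SM array or SM + MSTF replicate 1 or 3, with 1.18 to 1.54.

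**Figure D4:**
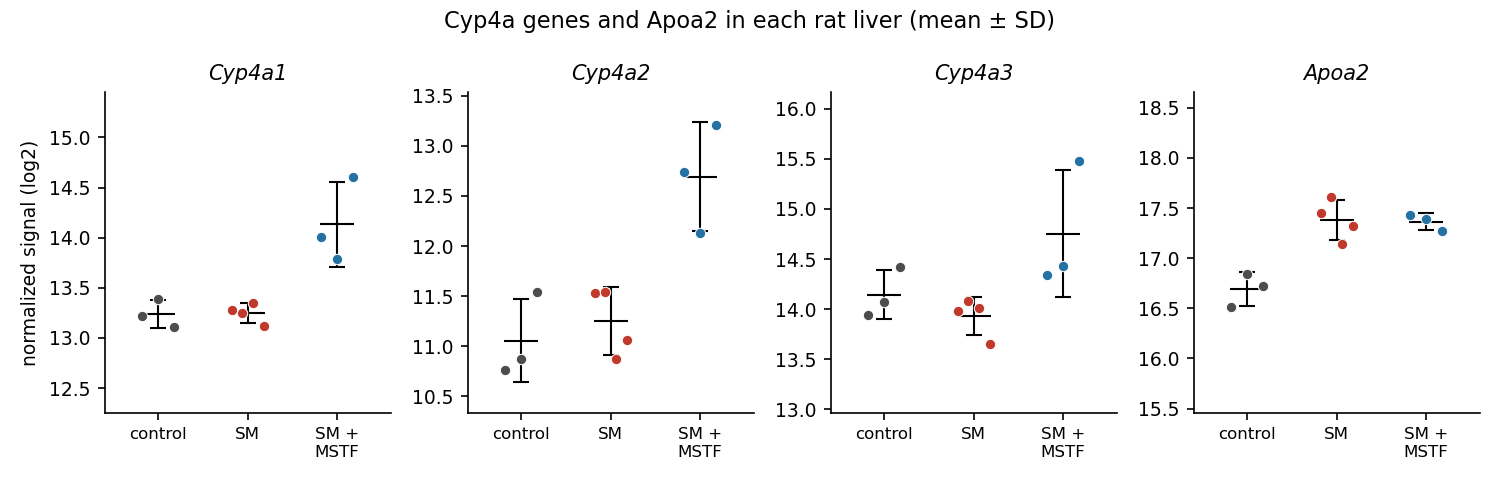
Normalized signal (log2, vertical axis) of Cyp4a1, Cyp4a2, Cyp4a3 and Apoa2 in each liver, with points for rats and the dash and bars for mean and SD. SM + MSTF points of Cyp4a1 and Cyp4a2 lie above all others, and for Apoa2 the SM and SM + MSTF points lie above all control points.

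The 250 bases before the starts of Cyp4a2 and Cyp4a3 are shown because both genes had higher means with MSTF (RefSeq, GRCr8, chr5:134170909-134171158 and chr5:134352237-134352486, both on the - strand). Capitals mark AGGTCA.
Cyp4a2: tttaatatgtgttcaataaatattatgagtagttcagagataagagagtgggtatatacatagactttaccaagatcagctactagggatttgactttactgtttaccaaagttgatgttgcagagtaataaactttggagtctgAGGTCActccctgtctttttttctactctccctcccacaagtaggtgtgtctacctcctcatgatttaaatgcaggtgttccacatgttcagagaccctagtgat
Cyp4a3: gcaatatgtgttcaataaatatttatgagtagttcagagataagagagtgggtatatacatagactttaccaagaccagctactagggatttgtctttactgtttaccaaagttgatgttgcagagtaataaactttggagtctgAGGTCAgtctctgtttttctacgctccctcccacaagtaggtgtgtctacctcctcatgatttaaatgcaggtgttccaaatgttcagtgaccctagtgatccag
Each window holds AGGTCA once, starting 105 bases before the start site, and their longest shared run is 57 bases. A direct repeat of AGGTCA with 1 base between the copies, on either strand, the arrangement that PPARA with RXR binds, is in neither window and in 0.0508% of all promoter windows. Whether the probe of one gene also takes up RNA of the other was not tested, so the signals of Cyp4a2 and Cyp4a3 may not be separate measurements.

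Of 26 PPARA targets listed, 24 were tested. In SM + MSTF against control 19 of the 24 had a higher mean and 5 a lower one, with a median log2 fold change of 0.38, against 0.0048 over all probes. Of all probes, 51% had a higher mean in SM + MSTF than in control and 46.1% a higher one than in SM. At an unadjusted p under 0.05, 10 were higher and 0 lower, which is 41.7% higher against 4.38% of all probes, and 0 of these held after adjustment. In SM + MSTF against SM 19 were higher, with a median of 0.28, and 8 passed an unadjusted p in that direction (33.3%, against 6.19% of all probes). This share was 25% for the 8 FXR targets and 57.1% for the 7 Kupffer cell and macrophage markers, so it was not particular to PPARA targets. In SM against control 12 were higher and 12 lower, with a median of -0.02. The comparisons share arrays, and the list was chosen with earlier results of these data known, so these shares are descriptions. With 1 array left out, 18 to 20 were higher against control and 16 to 20 against SM, and with 75th percentile scaling 20 and 17 were. Over the same left-out arrays, 7 to 13 and 6 to 10 were higher at an unadjusted p. The medians ran from 0.26 to 0.47 and from 0.20 to 0.32, both lowest without SM + MSTF replicate 3.

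Cpt1a, which lets long fatty acids into mitochondria, differed by -0.27 (SE 0.42, adjusted p = 0.793) in SM and by 0.37 (SE 0.44, adjusted p = 0.815) in SM + MSTF against control. Cpt2 and Slc25a20, which complete that entry, lay above all control livers in SM + MSTF, as did 8.08% of all probes. They differed from control by 0.45 (SE 0.14, adjusted p = 0.424) and 0.40 (SE 0.12, adjusted p = 0.424), while Acsl1, which activates fatty acids, differed by -0.26 (SE 0.12, adjusted p = 0.543). Ehhadh, the bifunctional enzyme of peroxisomes, differed in both groups against control, by 0.74 (SE 0.17, adjusted p = 0.0504) and 0.60 (SE 0.18, adjusted p = 0.422). Cd36, a fatty acid uptake protein, differed by 0.83 (SE 0.27, adjusted p = 0.162) and 1.15 (SE 0.29, adjusted p = 0.404). Fgf21, a fasting hormone, was at 8.89, 12.33 and 8.81 in SM + MSTF, so that its mean difference from SM of 1.14 rested on replicate 2. Angptl4, an inhibitor of lipoprotein lipase, was above all SM livers in SM + MSTF, as were 5.92% of all probes, by 1.17 (SE 0.26, adjusted p = 0.0695).

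**Figure D5:**
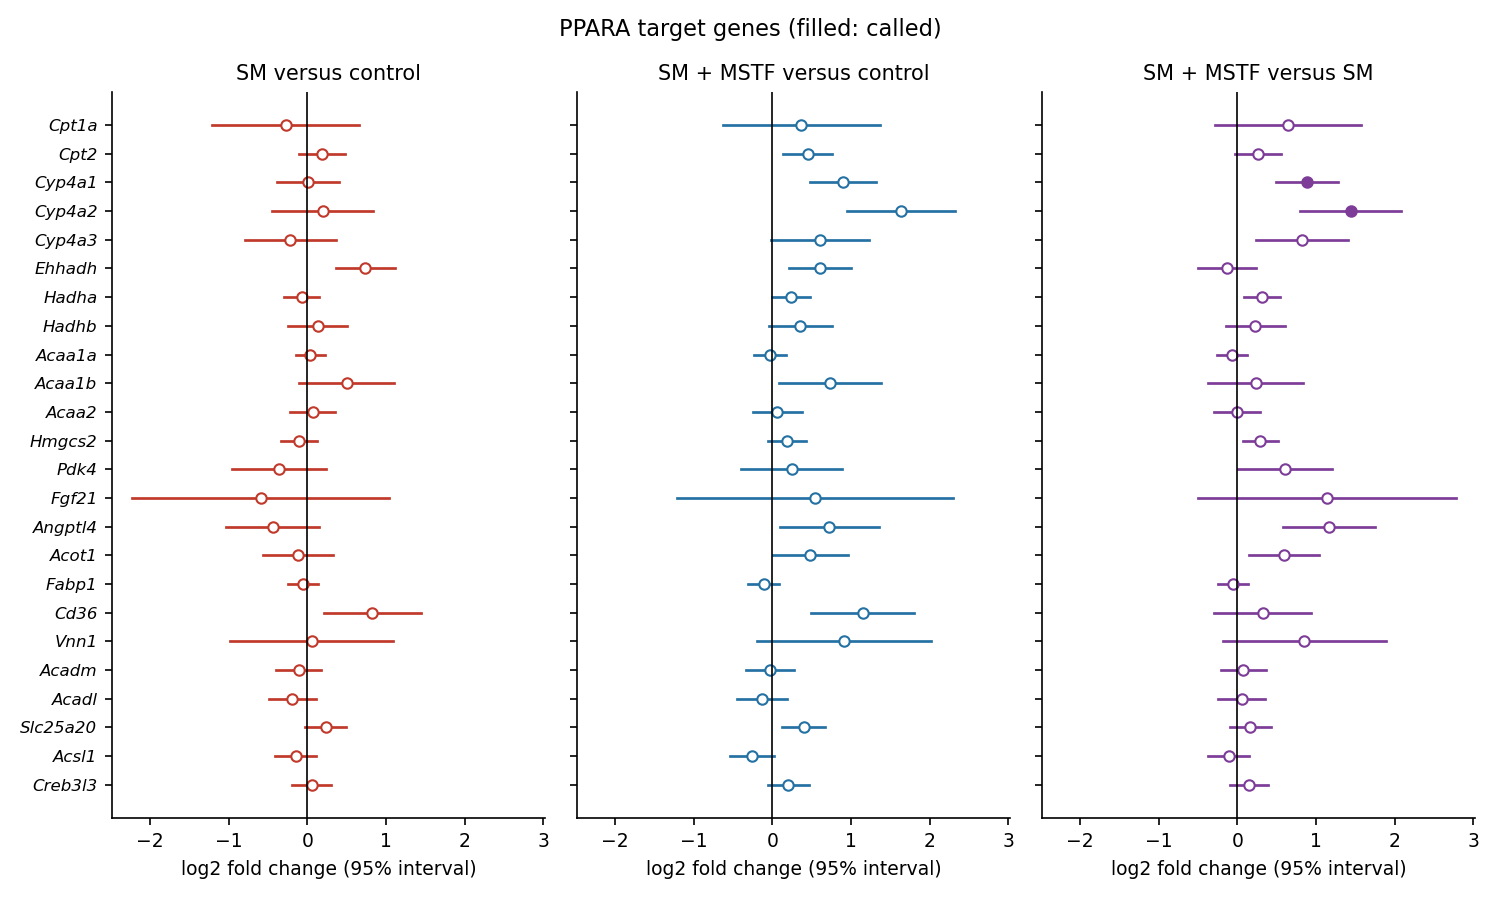
Log2 fold change (horizontal axis) with 95% confidence interval of the 24 tested PPARA targets in each comparison, with filled points for called genes. In both panels with SM + MSTF 19 of 24 points lie to the right of 0, and Cyp4a1 and Cyp4a2 are the called genes.

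HNF4A targets are secreted proteins and metabolic enzymes of the hepatocyte, and 18 of 19 were tested. Apoa2, an apolipoprotein of HDL, was called higher in SM against control, by 0.69 (SE 0.13, 1.61-fold, adjusted p = 0.0273). It stood at 16.51, 16.84 and 16.72 in control, 17.45, 17.61, 17.14 and 17.33 in SM and 17.43, 17.39 and 17.27 in SM + MSTF. SM + MSTF lay above control by 0.67 (SE 0.14, adjusted p = 0.347) and differed from SM by -0.02 (SE 0.13, adjusted p = 0.959). The call held in 12 of 15 other settings, among them the looser rules under which a called gene cannot be lost. It was lost with the slide as a random block (0.68, adjusted p = 0.0889), and SM and its slide cannot be told apart. It was also lost without any 1 control array or without SM replicate 1, 2 or 4, with 0.60 to 0.77 on the log2 scale. The median of the 18 targets was near 0, at -0.02 in SM against control and 0.02 in SM + MSTF against control. Apoc3, another apolipoprotein, differed by -0.05 (SE 0.08, adjusted p = 0.808) in SM, and G6pc1, of glucose release, by 0.42 (SE 0.42, adjusted p = 0.676).

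PXR and CAR targets, the drug-metabolizing enzymes and their transporters, had 17 of 20 genes tested and 0 called. Their median log2 fold change was 0.16 in SM against control, 0.35 in SM + MSTF against control and 0.21 in SM + MSTF against SM. Single arrays moved them. The first was 0.11, 0.037, 0.078 and 0.099 without control replicate 1, control replicate 2, SM replicate 1 and SM replicate 2, the second was 0.18, 0.22 and 0.19 without control replicate 1, control replicate 2 and SM + MSTF replicate 3 and 0.16 with normexp, and the last was 0.074 and 0.13 without SM replicate 3 and SM + MSTF replicate 3. Cyp3a2, a main drug-metabolizing P450, differed by 0.16 (SE 0.21, adjusted p = 0.760) in SM and by 0.41 (SE 0.23, adjusted p = 0.598) in SM + MSTF against control. The largest differences in SM against control were those of Cyp3a9 (0.57, adjusted p = 0.658), Cyp2b2 (-0.48, adjusted p = 0.392) and Gadd45b (-0.41, adjusted p = 0.782).

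AHR targets had 5 of 9 genes tested and 0 called. Cyp1a1, the gene most often read as a sign of AHR activity, was not well above background on every array of any group and was not tested. Cyp1a2, its relative in liver, differed by 0.16 (SE 0.30, adjusted p = 0.848) in SM against control. Nqo1, a quinone reductase that NRF2 also drives, stood at 5.97, 7.43 and 8.06 in control and at 7.74 to 8.67 in SM, a difference of 1.03 (SE 0.44, adjusted p = 0.279) that control replicate 1 widened. Nfe2l2, which encodes NRF2, differed by -0.19 (adjusted p = 0.780).

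FXR targets had 8 of 11 genes tested and 0 called. Nr0b2 (SHP), the repressor that FXR raises, had the largest difference in SM against control of all the genes on the lists, 1.60 (SE 0.66, adjusted p = 0.263). Its livers ran from 11.75 to 13.73 in control and from 13.24 to 15.10 in SM, and they overlapped. Cyp8b1, an enzyme that sets which bile acid is made, differed by -0.63 (adjusted p = 0.234) in SM against control and by 0.80 (adjusted p = 0.166) in SM + MSTF against SM. Slc10a1, which takes bile acids up from blood, differed by -0.35 (adjusted p = 0.233) in SM against control.

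LXR targets had 9 of 11 genes tested and 0 called. Abca1, the cholesterol exporter, differed by 0.06 (adjusted p = 0.879) in SM and by 0.22 (adjusted p = 0.686) in SM + MSTF against control. Fasn, fatty acid synthase, differed by 0.46 (adjusted p = 0.751), Mylip, which marks the LDL receptor for breakdown, by -0.33 (adjusted p = 0.153) and Pltp, a lipid transfer protein of plasma, by -0.23 (adjusted p = 0.704) in SM against control. The largest differences of the list were those of Scd, Cyp7a1 and Fasn in SM + MSTF. Cyp7a1, also on the FXR list, read 11.04, 8.64 and 8.56 there, against 9.66 to 11.43 in control and 8.80 to 11.11 in SM. It differed by -1.03 (SE 0.80, adjusted p = 0.705) from control and by -0.86 (SE 0.74, adjusted p = 0.58) from SM. For Scd and Fasn, SM + MSTF replicate 3 stood far below all other livers. Scd, which puts double bonds into fatty acids, read 15.95, 14.39 and 10.23 in SM + MSTF and differed by -1.31 (SE 1.13, adjusted p = 0.739) from control and by -1.48 (SE 1.06, adjusted p = 0.500) from SM. Fasn read 14.44, 14.85 and 12.05 and differed by -0.40 (adjusted p = 0.863) and -0.86 (adjusted p = 0.479).

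PPARG targets had 5 of 9 genes tested and 0 called. Fabp4, a fatty acid carrier of fat cells and macrophages, stood at 6.63, 8.0 and 7.36 in control and 6.38, 5.76, 5.57 and 6.70 in SM, a difference of -1.23 (SE 0.35, adjusted p = 0.105). Cidea, a lipid droplet protein, differed by 0.61 (adjusted p = 0.385). The fat cell markers Adipoq, Lep and Retn were not well above background on every array of any group. Cfd, the 1 fat cell marker tested, was well above background on all 10 arrays, at 11.4 to 12.0 in control.

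Partners and coregulators had 12 of 17 genes tested and 0 called. At an unadjusted p under 0.05, 4 were higher and 0 lower in SM against control (33.3% higher, against 9.37% of all probes). Of the RXR genes, Rxrb differed by 0.02 (adjusted p = 0.954) in SM and by 0.11 (adjusted p = 0.782) in SM + MSTF against control. Ppargc1a, a coactivator of PPARA and HNF4A, differed by 1.11 (adjusted p = 0.293) in SM against control and was well above background on 1 of 3 control, 4 of 4 SM and 2 of 3 SM + MSTF arrays. Ncoa2, another coactivator, differed by 0.37 (adjusted p = 0.335).

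All 7 Kupffer cell and macrophage markers had a lower mean in SM than in control and a higher one in SM + MSTF than in SM, with medians of -0.15 and 0.45, and 0 were called. At an unadjusted p under 0.05, 4 were higher in SM + MSTF than in SM (57.1%, against 6.19% of all probes), and 1 to 6 with 1 array left out. Against control the direction rested on single arrays: 3 of the 7 were higher without SM replicate 2 (median -0.046), 2 without control replicate 3, 1 without SM replicate 3 and 1 with normexp, and the median was -0.26 without SM replicate 4. Against SM all 7 stayed higher with any 1 array left out. Their summed log2 signal was 15.7 to 16.2 in control, 15.1 to 15.9 in SM and 15.7 to 16.1 in SM + MSTF. All 6 tested T and NK cell markers had a lower mean in SM than in control, while 56.3% of all probes had a higher one. SM replicate 2 was the lowest SM liver for each of the 6. For Cd3d it read 7.96, with the other SM livers at 8.75 to 9.05 and control at 8.74 to 8.85. For Cd3g it read 6.56, with the other SM livers at 7.22 to 7.80 and control at 7.18 to 7.61. Klrd1 alone was called, lower in SM against control (-1.22, adjusted p = 0.0274) and higher in SM + MSTF against SM (1.15, adjusted p = 0.0446). It was well above background on 2 of 4 SM arrays. Of the tested markers of stellate cells, endothelial cells, bile duct cells, fat cells, B cells, neutrophils and erythroid cells, 0 were called in any comparison. The 7 tested stellate cell and fibroblast markers summed to a log2 signal of 14.6 to 14.8 in control and 14.3 to 14.4 in SM. In SM + MSTF the sum ran from 14.0 to 14.8. The sum follows the brightest of these markers, which are collagens. Col1a1, a collagen, differed by -0.99 (SE 0.38, adjusted p = 0.235) in SM against control. Single markers went both ways, 3 with a higher mean in SM than in control and 4 with a lower one, between -0.99 and 0.70. The 1 tested B cell marker, Cd79b, was 6.01 to 6.65 in control, 3.58 to 5.04 in SM and 3.09 to 6.21 in SM + MSTF. It differed by -2.18 (SE 0.66, adjusted p = 0.126) in SM against control. Cd79b was well above background on 3 of 3 control, 2 of 4 SM and 2 of 3 SM + MSTF arrays. It was therefore tested only through control, where it was high, and this difference is a description. The part of these cells in the values of the receptors and their targets was not tested. The control genes Actb and Gapdh differed by 0.04 (adjusted p = 0.938) and 0.18 (adjusted p = 0.559) in SM against control.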

How the data were processed

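Liver RNA was hybridized to 10 one-colour arrays. The authors read the spots with Agilent Feature Extraction 10.7 (per the submitters' processing notes), deposited a background-subtracted intensity for each spot and a mark for spots above background, not uniform or outlying, and deposited quantile-normalized log2 values for each probe. Here the deposited intensity was quantile normalized over the 10 arrays and put on the log2 scale. Control spots and spots marked not uniform (0 to 4 per array) or outlying (74 to 115) were left out, and the spots of a probe were averaged. Quantile normalization makes the arrays' distributions alike, so a shift of most genes would not show.

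Probes were named through their accessions in a table of RefSeq genes (GRCr8): 17512 of 41012 had a name. The brightest probe stood for a gene. A probe was tested if 1 group or more had it well above background on all its arrays, in 1 fit of limma 3.58.1 (R 4.3.3). The procedure was tested on simulated data. The receptors, gene lists and markers were chosen with earlier results of these data known. Named are all receptors with their 3 nearest genes by Pearson's r, of each list its first gene, called genes and the 3 largest changes in SM versus control, and Actb and Gapdh. Cyp4a3, Cpt1a, Cpt2, Slc25a20, Acsl1, Angptl4, Cyp3a2, Scd, Cyp7a1, Col1a1, Cd79b, Cfd, Cd3d and Cd3g fall outside this rule and were chosen after their values were seen. P-values are for 3 or 4 rats per group, which limits precision, as does signal over background.

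The results were recomputed with the log2 values that the authors deposited, 75th percentile scaling, normexp with an offset of 50, other filters and marks, other thresholds and samples in the fit, the methods' t-test, replicate number or slide as a block, the mean over probes, and each array left out. Keeping outlying spots was added after seeing the data. Promoter windows are RefSeq sequences on GRCr8, searched on both strands.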

Additional observations from a re-analysis of the deposited data

Results flagged for a closer look

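In 7 of 104 sets of 4 SM livers examined, 1 for each receptor probe and each tested gene of the lists, 1 liver stood far from the other 3, and chance gives about 1 such set in 20. The measure is the gap to the nearest liver divided by the range of the 4. Among the receptors it was 0.837 for the brighter Hnf4a probe, where SM replicate 1 was highest. Among the listed genes it was 0.895 for Cyp2c7, highest in SM replicate 3, 0.962 for Ugt2b1, lowest in SM replicate 3, 0.854 for Por, highest in SM replicate 2, 0.846 for Cidea, lowest in SM replicate 3, 0.846 for F7, lowest in SM replicate 4, and 0.988 for Otc, highest in SM replicate 2.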

How the results depend on the processing

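The count of receptors called was 0 except for Ppard: 1 in SM against control under the methods' t-test at an unadjusted p with the fold minimum, and 1 in SM + MSTF against SM in limma at an unadjusted p with the fold minimum. Among the genes on the lists, the 1 called in SM against control became 2 with the deposited log2 values, with no filter and with the mean over probes, 8 at an unadjusted p, 5 under the methods' t-test unadjusted, and 0 with that test adjusted or with the slide as a random block. The 0 in SM + MSTF against control became 8 at an unadjusted p, 5 under the unadjusted t-test and 7 with the slide as a fixed block, where SM + MSTF replicate 3 alone stands against the 3 controls and is assumed to vary like the other arrays. The 2 in SM + MSTF against SM became 1 with 75th percentile scaling or no filter, 7 at an unadjusted p, 4 under the unadjusted t-test, and 0 with normexp, with probes above background on all arrays, with only the groups compared, with the adjusted t-test or with the slide as a random block. With 1 array left out these counts ran from 0 to 1, 0 to 0 and 0 to 2, and the receptor counts stayed at 0.

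Same-numbered rats did not deviate together (r from -0.10 to 0.17), so the replicate numbers do not pair them. With the replicate block the counts were 0 in SM against control and 0 in SM + MSTF against SM, Nr1i2 turned to 0.049 in SM against control and Pparg to 0.082 in SM + MSTF against SM.

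Other directions turned for differences near 0. Pparg was -0.0095 in SM against control and -0.038 in SM + MSTF against control with outlying spots kept, and -0.081 in the latter with the slide as a fixed block, where Hnf4a was -0.18. Hnf4a was 0.0092 in SM + MSTF against SM with the mean over probes. With 1 array left out, SM against control ran from -0.11 to 0.049 for Nr1i2, -0.079 to 0.13 for Nr1h4, -0.043 to 0.31 for Ppara and -0.0012 to 0.37 for Pparg. SM + MSTF against control ran from -0.17 to 1.16 for Nr1i3, -0.45 to 0.20 for Ppard and -0.035 to 0.34 for Pparg. SM + MSTF against SM ran from -0.49 to 0.83 for Nr1i3, -0.10 to 0.30 for Ppara, -0.18 to 0.082 for Pparg and -0.10 to 0.14 for Hnf4a. The cause was not tested. Of the recomputed fold changes of the receptors, Apoa2, Cyp4a1 and Cyp4a2, 663 kept their direction and side of the threshold, 24 turned, 40 were no longer called and 8 became called. Part of these directions could not turn. Other thresholds, the t-test and leaving out an array of the group not compared all keep the fold change as it was. A fixed slide block could be fitted only for SM + MSTF against control. Signal over background limits Ppard, Pparg and Ppara, the dimmest receptors.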
